A study of Mus musculus with 3 samples.

Results

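Matrix metalloproteinases and their tissue inhibitors were followed through the inguinal fat of mice with and without matrix Gla protein (MGP). The members were 10 of the 32285 genes of the count matrices, chosen by symbol: 6 metalloproteinase genes (Mmp2, Mmp3, Mmp11, Mmp14, Mmp19 and Mmp23) and the 4 inhibitor genes Timp1, Timp2, Timp3 and Timp4. The assay was droplet single-cell RNA-seq of the stromal vascular fraction (SVF), the cells left after collagenase digestion of fat and removal of floating adipocytes, from which dead and CD45-positive immune cells had been sorted out. All mice were 4 weeks old. The 3 groups were wild-type (WT) mice, mice with a global deletion of Mgp (Mgp-KO, B6.129S7-Mgptm1Kry/KbosJ) and mice in which a Pdgfra-Cre transgene deletes the floxed Mgp gene in Pdgfra-expressing cells (Pd-KO). Each group was 1 library made from several pooled mice of both sexes, so differences between genotypes have no replicate check. The Cre driver acts in every lineage that has expressed Pdgfra, and the WT library carries neither the transgene nor the floxed allele.

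Metalloproteinases are zinc enzymes that are made as inactive proenzymes and cut collagens and other matrix proteins after activation. Mmp2 is a gelatinase, Mmp3 (stromelysin-1) cuts matrix proteins and activates other proenzymes, Mmp14 (MT1-MMP) is a membrane-anchored collagenase, and Mmp11 (stromelysin-3), Mmp19 and Mmp23 are less studied members. TIMPs bind the active site of these enzymes, and TIMP2 also bridges pro-MMP2 to MMP14 on the cell surface, where pro-MMP2 is activated. In fat, this system remodels the collagen around progenitors and growing adipocytes, and MMP14 is known to be needed for normal growth of white fat.

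The promoters of Mmp3, Mmp14 and Timp1 are shown because these genes and the sparsely counted Timp4 were past 1.5-fold in the same direction in the progenitors of both knockouts. RefSeq promoter sequences of GRCm38.p6 matched 8 of the 10 members, all but Mmp2 and Mmp19. The 250 bases before the annotated start are given 5′ to 3′ on the gene's strand, with matches on either strand in capitals to TGANTCA (the AP-1 motif, bound by Fos and Jun proteins), TATAAA (the TATA box) or GGGCGG (the GC box, read CCGCCC on the other strand).
Mmp3, chr9:7445572-7445821, plus strand: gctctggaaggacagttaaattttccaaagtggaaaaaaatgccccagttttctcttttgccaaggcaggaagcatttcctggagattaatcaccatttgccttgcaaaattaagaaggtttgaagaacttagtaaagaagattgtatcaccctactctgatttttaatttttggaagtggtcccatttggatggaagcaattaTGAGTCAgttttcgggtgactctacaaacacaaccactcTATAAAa
Mmp14, chr14:54431348-54431597, plus strand: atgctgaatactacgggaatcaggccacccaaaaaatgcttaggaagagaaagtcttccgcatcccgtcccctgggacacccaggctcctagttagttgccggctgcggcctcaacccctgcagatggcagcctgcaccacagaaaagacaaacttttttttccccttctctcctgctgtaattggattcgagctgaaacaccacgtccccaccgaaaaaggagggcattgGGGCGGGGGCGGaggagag
Timp1, chrX:20869916-20870165, plus strand: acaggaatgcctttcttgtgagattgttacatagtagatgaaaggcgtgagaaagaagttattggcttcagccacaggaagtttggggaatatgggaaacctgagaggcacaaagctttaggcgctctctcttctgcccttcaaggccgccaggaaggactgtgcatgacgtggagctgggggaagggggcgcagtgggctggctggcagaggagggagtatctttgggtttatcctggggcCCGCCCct
Mmp3 was the only one of the 8 matched members with TGANTCA or TATAAA in this window, the first base of TGANTCA lying 46 bases before the start. Mmp14 had 2 adjoining GC boxes and Timp1 had 1. Over all 32851 promoters of the table, 6.75% held TGANTCA, 12.4% held TATAAA and 32.7% held GGGCGG in windows of the same length. A match describes letters and was not tested for binding.

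Cells were barcodes with at least 2000 unique molecular identifiers (UMIs, counted molecules) and at most 10% mitochondrial UMIs, which left 10511 WT, 12575 Mgp-KO and 8819 Pd-KO cells with a median of 12802, 6445 and 8269 UMIs. Between 35 and 40 barcodes were shared by each pair of libraries, at most 0.420% of the cells of either. The target gene went with the labels, since Mgp stood at 502, 1.94 and 1.22 UMIs per 1000000 UMIs of the gate (CPM) in progenitor cells and, in mural cells, at 324 CPM in WT, at 0 in Mgp-KO and at 305 CPM in Pd-KO. Beside that, 3 features of the libraries moved with genotype. The sum of 10 immediate early and heat shock genes, which rise on cell handling, was 9248, 11606 and 3624 CPM over all cells. Cells with a female or a male call numbered 3688 and 3687 in WT, 7620 and 1849 in Mgp-KO, and 2868 and 3481 in Pd-KO. The file headers name Cell Ranger 4 for WT and 7.1.0 for both knockouts, and genes with long introns were higher in both knockouts: among genes with over 100 kb of intron, 76.5% in Mgp-KO and 80.2% in Pd-KO were over 1.5-fold higher in progenitor cells, against 5.03% and 5.45% of genes with under 5 kb. Between Pd-KO and Mgp-KO, which share a header version, 15.5% of the genes over 100 kb were higher. Genotype and file version therefore cannot be told apart, and several member ratios are given below beside those of genes of like intron length.

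Cell types were gated by lists of markers that hold no member. The score of a list was the geometric mean of 1 plus the UMIs per 10000 of each marker, and cells past the threshold of exactly 1 lineage were kept, while 389, 273 and 160 cells past 2 of them were left out. The gates held 7549 WT, 10958 Mgp-KO and 6845 Pd-KO progenitor cells (Pdgfra, Dcn, Lum), 743, 216 and 673 endothelial cells (Pecam1, Cdh5), 924, 156 and 351 mural cells (Myh11, Acta2, Rgs5) and 301, 533 and 108 luminal epithelial cells (Epcam, Krt8). Among progenitors, further gates took 2309, 5278 and 4326 interstitial progenitors (Dpp4, Pi16), 2636, 1762 and 829 preadipocytes (Icam1, Pparg, Fabp4) and 683, 498 and 345 adipogenesis-regulatory cells (Areg; F3, Gdf10). A gate is a range of a score, and 532, 374 and 199 preadipocytes lay within 1.2-fold above its threshold while 530, 542 and 243 progenitors lay as close below. The mix of these gates differed between libraries, so each value over all progenitors stands beside the values of its gates. The mix inside a gate can differ as well. The study found high Dpp4 and Pi16 both in a cluster present with and without Mgp and in a cluster seen mainly after its deletion. The interstitial gate, which uses these markers, does not separate them. No lineage gate had a marker of another lineage among its 10 genes of largest fold over the other lineages, and no gate among progenitors had a marker of another such gate. The 10 genes of the progenitor gate held none of its own markers but did hold Dpp4, a marker of the interstitial gate.

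Mmp2, Mmp3, Mmp19 and Mmp23 were mainly progenitor genes. Mmp2 stood at 614, 901 and 878 CPM in progenitors of the WT, Mgp-KO and Pd-KO libraries, the order used throughout, but at 58.8, 26.1 and 22.1 CPM in endothelial and 52.5, 57.4 and 19.8 CPM in mural cells. Mmp3 had 530, 285 and 131 CPM in progenitors and at most 35.9 CPM in endothelial, mural or luminal cells. The low Mmp3 levels of the WT library were alike in these 3 gates and in its 92 cells of a neuron gate, from 25.6 to 35.9 CPM, while free RNA in barcodes of 10 to 100 UMIs held 159, 200 and 86.7 CPM. Mmp23 had 283, 216 and 301 CPM in progenitors against 15.9, 0 and 4.80 CPM in endothelial cells, where the 0 in Mgp-KO allows up to 3.73 CPM. Mmp19 had 74.0, 96.0 and 50.3 CPM in progenitors and at most 8.37 CPM in endothelial or mural cells.

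Mmp14 UMIs were also found outside progenitors, though there mostly at levels below those of free RNA, which are given further on. Its level was 268, 512 and 536 CPM in progenitors, 104, 179 and 169 CPM in mural cells, 72.8, 103 and 115 CPM in luminal cells and 56.9, 48.5 and 58.2 CPM in endothelial cells. Of the values outside progenitors, only that of WT mural cells lay above the free RNA of its library. The part of free RNA in them was not tested. Mmp11 was low in every gate, with 9.83, 30.3 and 9.99 CPM in progenitors and 15.5, 16.9 and 20.4 CPM in mural cells, and its highest level was 60.7 CPM in Mgp-KO preadipocytes.

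The inhibitors divided the tissue between them. Timp2 was a progenitor gene with 1569, 1579 and 1986 CPM there and 251, 122 and 83.8 CPM in endothelial cells. Timp1, the inducible inhibitor, had 145, 83.3 and 74.8 CPM in progenitors and at most 84.4 CPM in endothelial, mural or luminal cells. Timp3, which binds to the matrix, was the shared inhibitor, with 440, 486 and 519 CPM in progenitors, 1087, 1012 and 646 CPM in endothelial cells and 711, 628 and 911 CPM in mural cells. Timp4 was vascular, at 334, 307 and 206 CPM in endothelial and 169, 110 and 77.8 CPM in mural cells. Progenitors held 3.46, 1.20 and 1.18 CPM of Timp4, below its 22.6, 22.8 and 19.7 CPM in free RNA. In smaller gates, Timp3 had 928, 1276 and 878 CPM in 136, 13 and 43 Schwann cells, and Mmp2 had 119, 192 and 341 CPM in 91, 22 and 10 adipocytes.

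**Figure D1:**
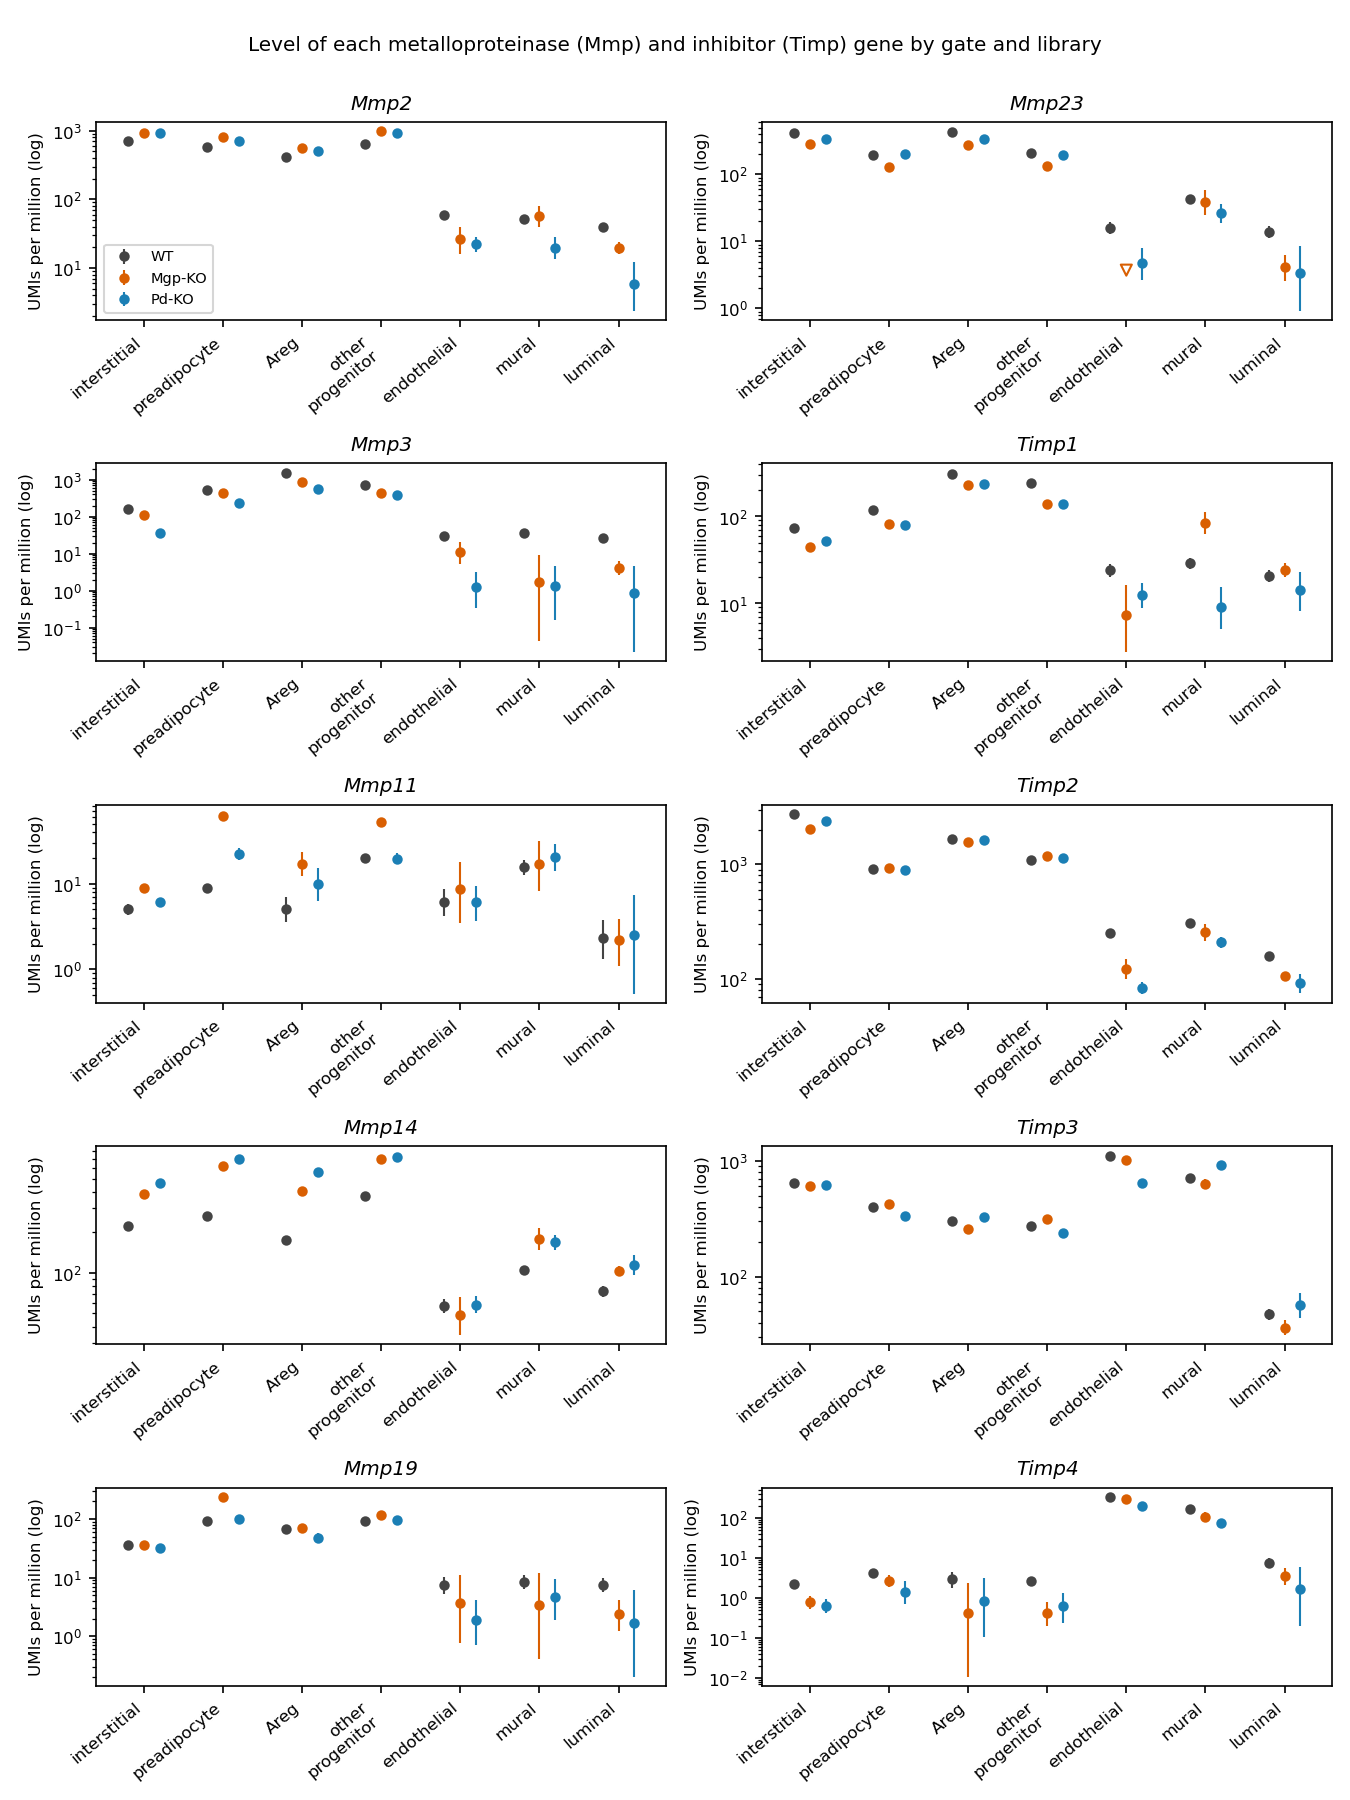
Level of each of the 10 genes in CPM (log axis) in 7 gates, with 1 point per library (WT, Mgp-KO, Pd-KO) and bars for the 95% Poisson interval of the UMI count. An open triangle marks the 3-count limit where no UMI was found. Mmp2, Mmp3, Mmp19, Mmp23 and Timp2 lie highest in the progenitor gates, whereas Timp4 lies highest in endothelial cells, at 206 to 334 CPM.

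Since each library held at least 50 progenitor, endothelial, mural, interstitial, preadipocyte and Areg cells, these gates could be tested over the 3 libraries, with edgeR's quasi-likelihood test on summed UMIs, the library as a block, and Benjamini-Hochberg adjustment over all genes. Between progenitor and endothelial cells 8 members were higher in progenitors and 2 in endothelial cells, where 50.4% of all genes were called (27.7% higher in progenitors and 22.7% lower). All 6 metalloproteinase genes were higher in progenitors, led by Mmp23 with a log2 difference of 5.45 ± 0.48 (SE, adjusted p = 3.9e-06), Mmp3 with 5.36 ± 0.50 and Mmp2 with 4.95 ± 0.50. Timp4 was lower in progenitors by a log2 difference of -7.02 ± 0.28 (adjusted p = 5.6e-08). The median log2 difference of the members was 3.57, against 0.07 over all 13981 genes tested. Timp3 differed by -0.63 ± 0.21 (adjusted p = 0.030), a call that was lost without the WT library (-0.42, adjusted p = 0.21) and without Mgp-KO (-0.54, adjusted p = 0.15).

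Against mural cells the pattern was like that, with 7 members higher in progenitors and 1 lower while 41.4% of all genes were called (22.8% higher and 18.6% lower). Mmp3 was higher in progenitors by 5.26 ± 0.52 on the log2 scale, Mmp2 by 4.79 ± 0.50, Timp2 by 3.14 ± 0.30 and Mmp14 by 1.87 ± 0.20, each with an adjusted p of at most 2.6e-05. Timp4 differed by -5.68 ± 0.27. Mmp11 (-0.05 ± 0.31) and Timp3 (-0.30 ± 0.21) missed the threshold with adjusted p = 0.92 and adjusted p = 0.29. Timp1 was higher in progenitors by 1.99 ± 0.46 (adjusted p = 0.0048), and lost the call without WT (adjusted p = 0.066) or without Pd-KO (adjusted p = 0.063).

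The vascular gates also differed from each other. Timp4 was higher in endothelial than in mural cells by a log2 difference of 1.34 ± 0.23 (adjusted p = 7.9e-04), whereas Mmp14 (-1.33 ± 0.21, adjusted p = 4.3e-04), Mmp23 (-2.06 ± 0.50), Mmp11 (-1.39 ± 0.38) and Timp2 (-0.81 ± 0.29) were higher in mural cells. Over all genes 37.6% were called between these gates, 18.3% higher in endothelial cells and 19.3% lower. The Mmp11 call was lost without WT (adjusted p = 0.082) or Pd-KO (adjusted p = 0.090), the Timp2 call without Mgp-KO (adjusted p = 0.25) or Pd-KO (adjusted p = 0.096). Timp3 missed the threshold at 0.32 ± 0.21, but was called higher in endothelial cells without Pd-KO (0.68, adjusted p = 0.013).

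The progenitor gates carried different sets of these genes. Interstitial progenitors had more Timp2 than preadipocytes, at 2743, 2028 and 2381 against 904, 929 and 889 CPM, a log2 difference of 1.52 ± 0.11 (edgeR, adjusted p = 1.1e-06). They also had more Mmp23 (1.13 ± 0.11), Timp3 (0.82 ± 0.12) and Mmp2 (0.42 ± 0.10). Preadipocytes had more Mmp3, at 541, 430 and 236 against 165, 109 and 36.5 CPM, a log2 difference of -1.98 ± 0.16 (adjusted p = 1.8e-06). Mmp19 (-1.78 ± 0.22), Mmp11 (-1.75 ± 0.26), Timp4 (-1.13 ± 0.28), Timp1 (-0.59 ± 0.10) and Mmp14 (-0.37 ± 0.11) were also higher in preadipocytes. All 10 members were thus called between these gates, 4 in interstitial progenitors and 6 in preadipocytes, while 41.9% of all genes were called, 20.4% and 21.5% in these directions. The immediate early list was higher in preadipocytes too, at 14149, 20077 and 8880 against 4431, 7276 and 2200 CPM, and its part in the difference was not tested. The Mmp14 call was lost without Mgp-KO (-0.28, adjusted p = 0.17) or Pd-KO (adjusted p = 0.085), that of Timp4 without Mgp-KO (adjusted p = 0.055) and that of Mmp2 without Pd-KO (adjusted p = 0.088). With the score thresholds doubled, Timp1 turned to 0.12 (adjusted p = 0.56).

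Areg cells had the most Mmp3 and Timp1 among the progenitor gates. Mmp3 reached 1553, 850 and 547 CPM there, above both other gates in every library, and exceeded their mean by a log2 difference of 2.28 ± 0.13 (edgeR, adjusted p = 1.9e-07). Timp1 reached 308, 228 and 236 CPM against at most 118 CPM in interstitial progenitors and preadipocytes, a difference of 1.81 ± 0.09 (adjusted p = 6.7e-08). Mmp23 was also higher (0.49 ± 0.09), while Mmp2 (-0.64 ± 0.09) and Timp3 (-0.75 ± 0.11) were lower. Thus 5 of the 10 members were called where 28.4% of all genes were, 13.8% higher and 14.5% lower. Progenitors in none of the 3 gates, which were not in this fit, lay between Areg cells and the other gates for both genes. They had 719, 451 and 396 CPM of Mmp3 and 244, 140 and 138 CPM of Timp1.

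**Figure D2:**
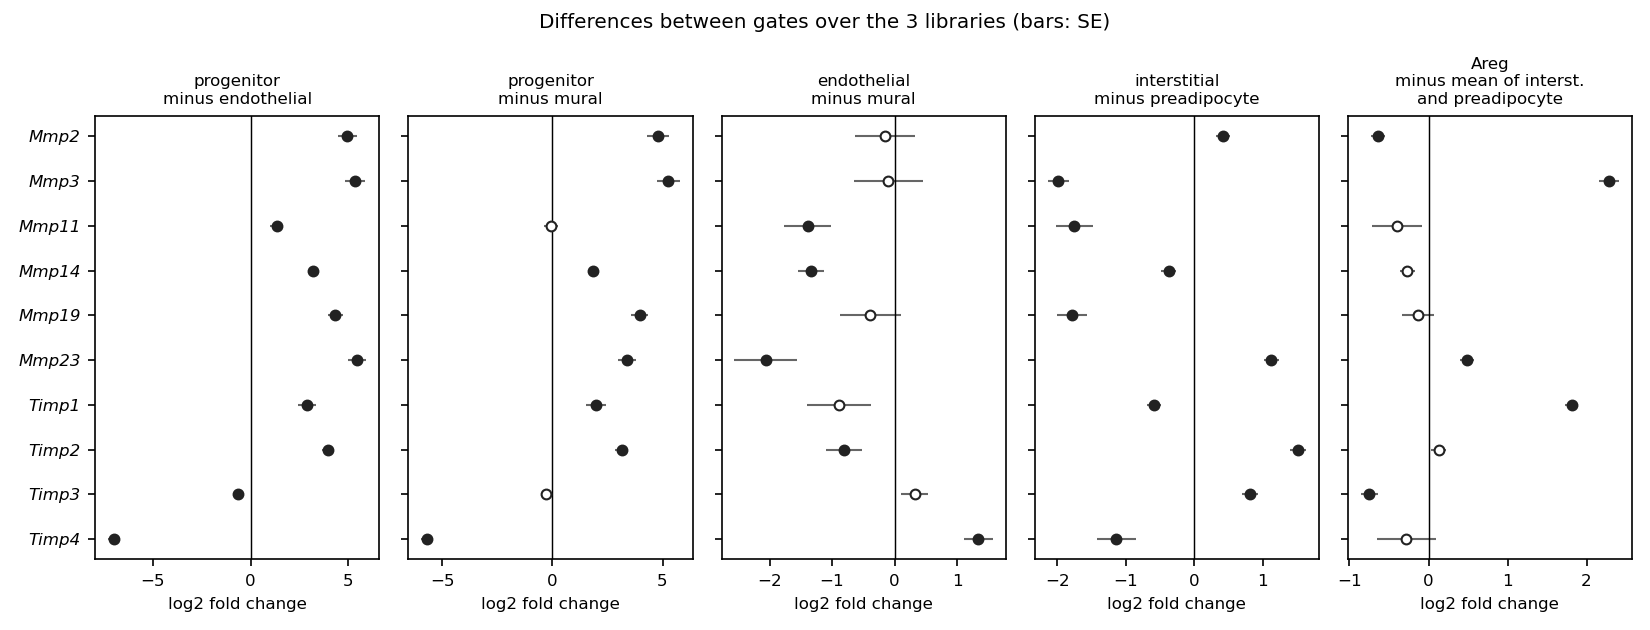
Log2 difference (± SE) of each gene in 5 comparisons of gates over the 3 libraries, with filled points for an adjusted p under 0.05. Timp4 lies far below 0 in both comparisons of progenitors with vascular cells (-7.02 and -5.68), and Mmp3 and Timp1 lead the Areg comparison (2.28 and 1.81).

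Between genotypes, Mmp14 was higher and Mmp3 and Timp1 were lower in the progenitors of both knockout libraries. Mmp14, with 268 CPM in WT, rested on 29596 UMIs there, 39373 in Mgp-KO and 35067 in Pd-KO. After subtraction of the median log2 ratio of all genes tested (0.14 for Mgp-KO and 0.18 for Pd-KO), its log2 ratio to WT was 0.80 (95% interval 0.78 to 0.82) in Mgp-KO and 0.82 (0.80 to 0.84) in Pd-KO, where the exact binomial intervals cover counting error only. These are 1.74-fold and 1.76-fold. Genes with 5 to 10 kb of intron, like the 7.79 kb of Mmp14, had a median ratio of -0.20 in Mgp-KO and -0.28 in Pd-KO, and relative to them Mmp14 stood at 1.00 and 1.10. Free RNA held 94.8, 417 and 489 CPM of Mmp14, higher in both knockouts as in the cells, and its part was not tested, while the endothelial level was 56.9, 48.5 and 58.2 CPM.

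Mmp3 had a ratio of -1.03 (-1.05 to -1.01) in Mgp-KO and -2.20 (-2.23 to -2.16) in Pd-KO, that is 0.489-fold and 0.218-fold of WT. Genes of its intron length (8.35 kb) had the same medians as those of Mmp14, and relative to them Mmp3 stood at -0.83 and -1.92. Timp1 stood at -0.93 (-0.98 to -0.89) and -1.14 (-1.18 to -1.09), or at -0.63 and -0.69 relative to genes with under 5 kb of intron. The immediate early list moved down with Mmp3 in Pd-KO but not in Mgp-KO, at 9735, 11703 and 3608 CPM in progenitors. The ratios were also read in progenitor cells within a window of 3000 to 8000 CPM of that list. There Mmp3 stood at -1.74 in Mgp-KO and -1.71 in Pd-KO, Mmp14 at 0.70 and 0.87, and Timp1 at -0.99 and -1.36. Interstitial progenitors, the progenitor gate with least Mmp3, held 764 of 2159, 2124 of 3056 and 941 of 1897 cells in the window. Over 12 settings including this window, the lowest Mmp3 ratios of interstitial progenitors were -0.99 and -2.63. Those of preadipocytes were -0.68 and -1.87, of Areg cells -1.16 and -1.81, and of the remaining progenitors -1.46 and -1.53. The part of the mix of gates in the window values was not tested.

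Of the 10 members, 2 in Mgp-KO progenitors were over 1.5-fold higher (Mmp11, Mmp14) and 3 lower (Mmp3, Timp1, Timp4), where 34.9% of all 14112 genes tested were past that fold, 23.6% higher and 11.3% lower. In Pd-KO, 1 was higher (Mmp14) and 4 lower (Mmp3, Mmp19, Timp1, Timp4), against 44.8% of 13975 genes, 26.0% higher and 18.8% lower. Within bins of like intron length these shares were 29.1% and 36.1%, and 5 and 4 members were past the fold. Mmp2, with ratios of 0.42 and 0.33, Timp2 (-0.13 and 0.16), Timp3 (0.01 and 0.06) and Mmp23 (-0.53 and -0.09) stayed within 1.5-fold in both. Timp2, whose 50.8 kb of intron is the longest among the members, stood at -0.56 and -0.41 relative to genes with 50 to 100 kb. The Timp4 ratios rest on 382 WT, 92 Mgp-KO and 77 Pd-KO UMIs.

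Mmp14 was past 1.5-fold higher in every progenitor gate of both knockouts. It went from 222 CPM in WT to 383 in Mgp-KO and 467 in Pd-KO in interstitial progenitors (0.65 and 0.90), from 263 to 616 and 702 CPM in preadipocytes (1.11 and 1.15) and from 176 to 402 and 562 CPM in Areg cells (1.06 and 1.44). The remaining progenitors had 0.76 and 0.77. In mural cells the ratio was 0.68 (0.37 to 0.98) in Mgp-KO and 0.49 (0.28 to 0.70) in Pd-KO, and in endothelial cells it was -0.32 (-0.84 to 0.16) and -0.13 (-0.40 to 0.14). In both knockouts the Mmp14 levels of these vascular gates and of interstitial progenitors lay below those of free RNA. That of Mgp-KO Areg cells did so too. In WT the interstitial and Areg levels lay above free RNA. The part of free RNA in these ratios was not tested. Over 12 settings of cells, gates and scaling, the Mmp14 ratio kept its sign in interstitial progenitors (0.46 to 0.80 and 0.52 to 1.15), preadipocytes (0.83 to 1.36 and 1.06 to 1.44) and Areg cells (1.02 to 1.25 and 1.32 to 1.71).

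Mmp3 was lower in each of these gates, and more so in Pd-KO. Its ratios were -0.73 and -2.35 in interstitial progenitors, -0.45 and -1.46 in preadipocytes, -1.005 and -1.75 in Areg cells, and -0.82 and -1.06 in the remaining progenitors. Of these, Mgp-KO preadipocytes alone were within 1.5-fold. Relative to genes with 5 to 10 kb of intron, Mgp-KO interstitial progenitors (-0.57) were within it as well. In interstitial progenitors the Mmp3 level lay below that of free RNA in both knockouts and close to it in WT. The part of free RNA in these ratios was not tested. Timp1 was at -0.87 and -0.69, -0.65 and -0.82, and -0.57 and -0.63 in the 3 named gates. Relative to genes with under 5 kb of intron it was at -0.64 and -0.30, -0.28 and -0.35, and -0.38 and -0.26. Of these, Mgp-KO interstitial progenitors alone were past 1.5-fold. Both genes held the same sign under all 12 settings, with Mgp-KO preadipocytes nearest to 0 (Mmp3 -0.08, Timp1 -0.06).

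Differences in other members were unequal between gates. Preadipocytes of Mgp-KO had more Mmp11, as did the progenitors as a whole, at 8.96, 60.7 and 22.3 CPM, with ratios of 2.64 (2.47 to 2.82) and 1.05 (0.78 to 1.32), and more Mmp19, at 94.1, 234 and 101 CPM, with ratios of 1.19 and -0.16. The Mmp11 ratio of Pd-KO preadipocytes was -0.82 among female cells, and the Mmp19 ratio of Mgp-KO preadipocytes was -0.02 in the immediate early window. Mmp23 was lower in Mgp-KO in interstitial progenitors (-0.69), preadipocytes (-0.71) and Areg cells (-0.76). In Pd-KO it was past 1.5-fold in Areg cells (-0.60) but not in interstitial progenitors (-0.49) or preadipocytes (-0.20). Relative to genes with under 5 kb of intron, like its 0.39 kb, all of these were within 1.5-fold. In interstitial progenitors, preadipocytes and Areg cells they were then -0.46, -0.35 and -0.57 in Mgp-KO and -0.10, 0.27 and -0.23 in Pd-KO. In interstitial progenitors 6 members in Mgp-KO and 4 in Pd-KO were past 1.5-fold, where 27.7% and 36.6% of all genes were. In preadipocytes 6 and 5 were, against 36.7% and 41.6%, and in Areg cells 3 and 5 of the 8 tested were, against 25.1% and 33.1%. Within bins of like intron length, interstitial progenitors had 2 higher and 3 lower in Mgp-KO, and 1 and 3 in Pd-KO (22.8% and 27.7% of all genes). Preadipocytes had 3 higher and 1 lower, and 2 and 4 (28.4% and 29.8%). Areg cells had 1 higher and 1 lower, and 1 and 2 (20.3% and 22.9%).

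**Figure D3:**
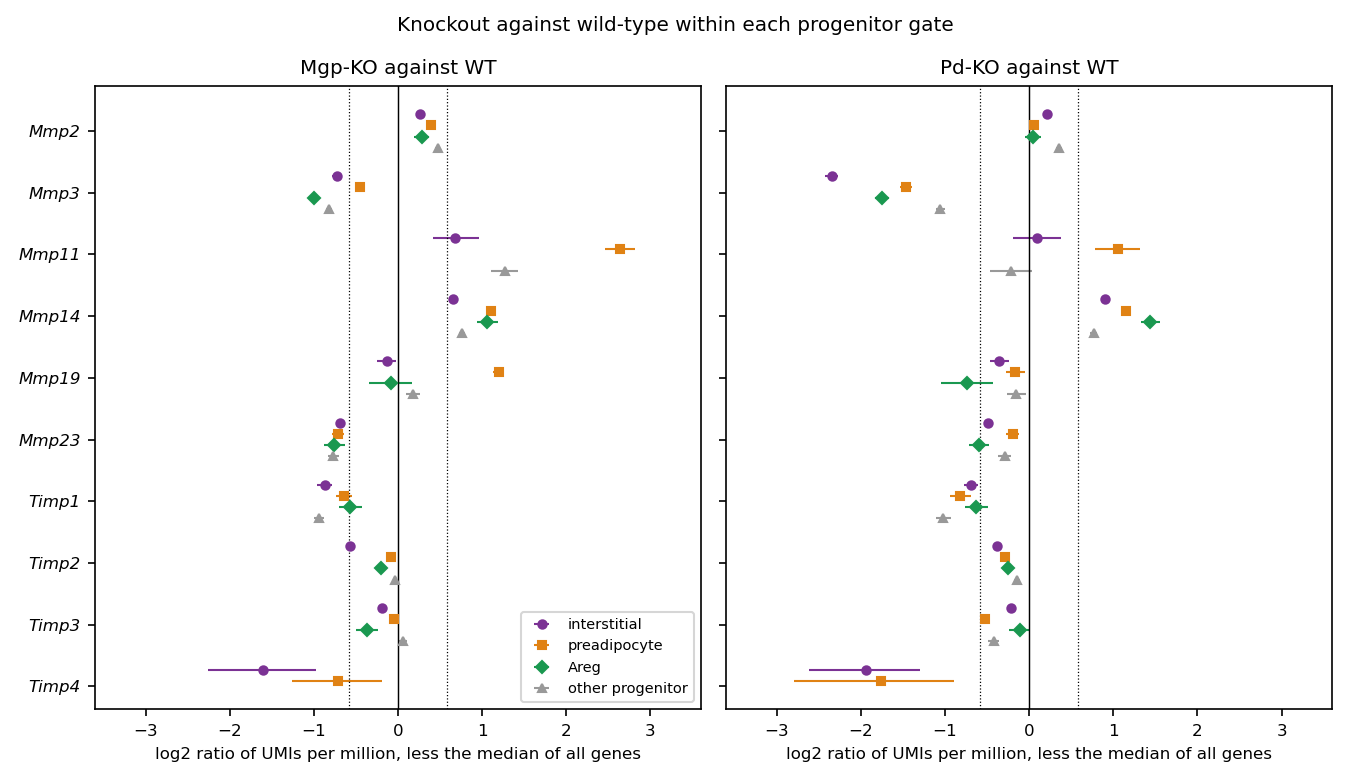
Log2 ratio of each gene to WT in Mgp-KO and Pd-KO, less the median of all genes tested, in 4 progenitor gates. Bars are 95% counting intervals and dotted lines mark 1.5-fold. Mmp14 lies above the upper line in all 4 gates in both knockouts (0.65 to 1.44), and Mmp3 lies at or below -0.45 throughout.

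Vascular cells of the knockouts had less of several inhibitors, with exceptions in mural cells. There Timp1 was higher in Mgp-KO, a ratio that turned to -0.34 with the score thresholds doubled. Timp3 was not lower in Pd-KO mural cells, at 911 against 711 CPM in WT (0.16, 0.07 to 0.24). In Pd-KO endothelial cells Timp3 was at 646 against 1087 CPM in WT, a ratio of -0.91 (-0.99 to -0.84), and Timp4 at 206 against 334 CPM (-0.86, -0.99 to -0.73). In Mgp-KO they were at -0.19 and -0.21. Timp2 was lower in the endothelial cells of both, at -1.13 and -1.75, although its 251, 122 and 83.8 CPM there lie below the 692, 1029 and 1086 CPM of free RNA. Of the members tested, 4 of 7 in Mgp-KO and 7 of 8 in Pd-KO endothelial cells were past 1.5-fold, all lower. Of all genes, 22.9% and 30.7% were past that fold. Some of these ratios rest on few UMIs, with 21 of Mmp2, 9 of Mmp3 and 6 of Timp1 in Mgp-KO, and 4 of Mmp3 in Pd-KO. In mural cells Timp4 was lower in both, with ratios of -0.71 and -1.32, and 4 of 9 members in Mgp-KO and 6 of 9 in Pd-KO were past 1.5-fold against 26.5% and 34.9% of all genes. In Pd-KO all 6 were lower, whereas in Mgp-KO Mmp3 and Timp4 were lower and Mmp14 and Timp1 (1.44) higher. Within bins of like intron length, endothelial cells had 4 lower in Mgp-KO and 6 lower in Pd-KO (19.1% and 22.8% of all genes). Mural cells then had 2 higher and 2 lower in Mgp-KO, and 1 higher (Mmp14, 0.73) and 5 lower in Pd-KO (23.8% and 25.9%). Relative to genes with under 5 kb of intron, Timp4 of Pd-KO endothelial cells was at -0.52, within 1.5-fold. Gated vascular cells had fewer UMIs in the knockouts, with medians of 6043, 3214 and 3916 in endothelial cells. Their median progenitor score was higher in WT, at 2.68, 1.0 and 1.40 in endothelial and 3.34, 1.59 and 2.06 in mural cells. The part of carried-over progenitor RNA in these ratios was not tested.

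The balance of proteases and inhibitors was read as the log2 ratio of the summed UMIs of the 6 Mmp genes to those of the 4 Timp genes. Since capture differs between genes, the ratio has no absolute meaning, and its differences between gates and libraries are what it shows. Timp2 and Timp3 have 50.8 and 41.0 kb of intron, the Mmp members from 0.39 to 22.8 kb, and genes with long introns were higher in both knockouts. The ratios were not adjusted for intron length. The part of file version in their differences between genotypes, here and in the pairs below, was not tested. It was lowest in endothelial cells at -3.28, -3.88 and -3.33, followed by mural cells at -2.23, -1.86 and -2.32. Interstitial progenitors stood at -1.16, -0.62 and -0.77, whereas preadipocytes stood at 0.23, 0.67 and 0.59 and Areg cells at 0.23, 0.08 and -0.13. In all 3 libraries preadipocytes thus lay above interstitial progenitors, which lay above both vascular gates.

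Within interstitial progenitors and preadipocytes the ratio was higher in both knockouts than in WT. The part of a changed mix of cells inside the interstitial gate was not tested. Over 9 settings it ran from -1.34 to -1.10 in WT interstitial progenitors, from -0.74 to -0.60 in Mgp-KO and from -0.90 to -0.66 in Pd-KO, ranges that did not meet WT. Over all progenitors it was -0.28, -0.07 and -0.44, so that Mgp-KO lay above WT and Pd-KO below. With Mmp3 left out of the sum it was -0.79, -0.29 and -0.54, above WT in both knockouts, and over 9 settings WT (-0.87 to -0.67) did not meet Mgp-KO (-0.51 to -0.23) or Pd-KO (-0.56 to -0.38). In Areg cells the order turned likewise without Mmp3, to -1.04, -0.63 and -0.58. The sum without Mmp3 was not among the planned ratios. Mmp3 was the Mmp member lowest relative to WT in both knockouts, so leaving it out raises both relative to WT. With Mmp3 in the sum, the order over all progenitors turned in the immediate early window, where the values were -0.30, -0.37 and -0.23. The interstitial gate, which had the lowest ratio among progenitors, held 2309 of 7549, 5278 of 10958 and 4326 of 6845 progenitors. In the window it held 764 of 2159, 2124 of 3056 and 941 of 1897, so the window also changed the mix of gates. The part of that mix in the turned order was not tested. The ranges given above for interstitial progenitors include the window.

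The pair of Mmp14 and Timp2, whose products act together on pro-MMP2, shifted the same way in each progenitor gate. Its log2 ratio was -3.63, -2.40 and -2.35 in interstitial progenitors, -1.78, -0.59 and -0.34 in preadipocytes and -3.23, -1.97 and -1.54 in Areg cells, above WT in both knockouts each time. The knockouts also lay above WT in endothelial (-2.14, -1.33 and -0.53), mural (-1.57, -0.51 and -0.31) and luminal cells (-1.13, -0.04 and 0.32). In endothelial cells Mmp14 itself was not higher, at 56.9, 48.5 and 58.2 CPM. Timp2 was lower there, at levels below those of free RNA. The median progenitor score of endothelial, mural and luminal cells was higher in WT, and the part of carried-over progenitor RNA was not tested. Free RNA held more Mmp14 and more Timp2 in both knockouts than in WT, Mmp14 by the larger fold. In both knockouts the Timp2 level of preadipocytes lay below that of free RNA. The part of free RNA in the ratios of this pair, also in progenitor gates, was not tested. Over all progenitors the Mmp14 to Timp2 ratio was -2.55 (-2.57 to -2.53), -1.63 (-1.64 to -1.61) and -1.89 (-1.91 to -1.87). Mmp2 over Timp2 moved less, from -1.35 to -0.81 and -1.18. Mmp3 over Timp1 was 1.87, 1.78 and 0.81 over all progenitors, as both genes were lower in both knockouts. In Pd-KO interstitial progenitors it was -0.52, against 1.14 in WT and 1.29 in Mgp-KO, but 0.27 in the immediate early window. The Mmp3 level of this gate lay below that of free RNA in both knockouts, and the part of free RNA was not tested.

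**Figure D4:**
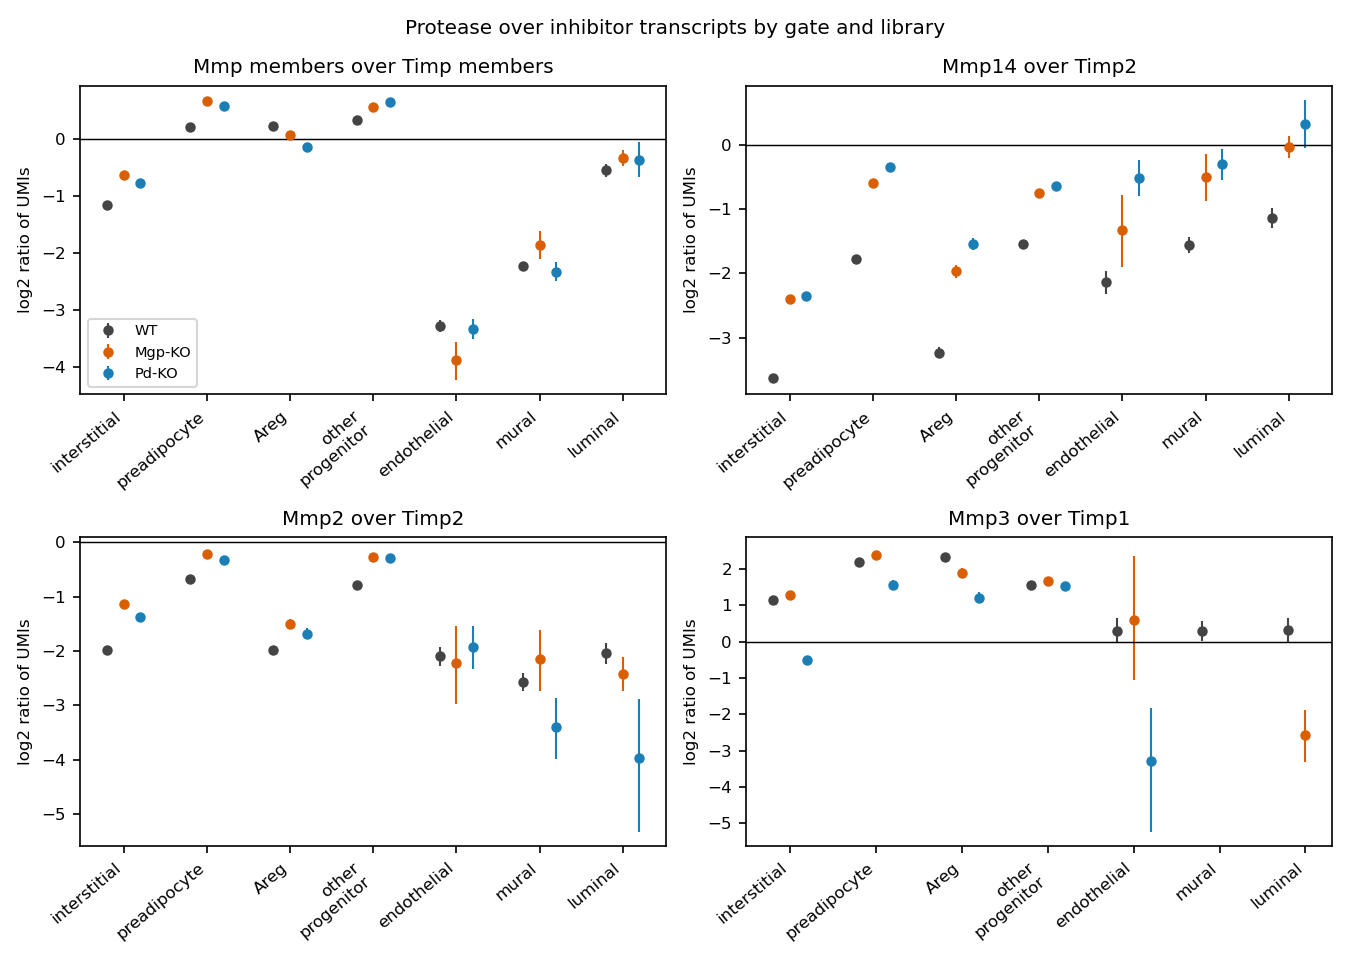
Log2 ratio of protease to inhibitor UMIs in 7 gates and 3 libraries for all members and for 3 pairs, with 95% counting intervals. Points with 3 or fewer UMIs on a side are left out. Both knockouts lie above WT for Mmp14 over Timp2 in each progenitor gate, for example at -0.59 and -0.34 against -1.78 in preadipocytes.

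Shares of cells gave the same picture for Mmp14. With each cell thinned to 2000 UMIs, 36.5% (exact binomial 95% interval 35.4 to 37.6%), 57.8% (56.9 to 58.7%) and 62.2% (61.0 to 63.3%) of progenitors had an Mmp14 UMI, against 86.5%, 88.4% and 94.5% unthinned. In endothelial cells 9.42%, 6.48% and 9.36% had one after thinning. UMIs of Mmp2, Mmp14 and Timp2 occurred together in 21.7%, 41.8% and 46.7% of thinned progenitors, and in at most 0.463% of endothelial cells. Mmp3 was found in 36.9%, 24.3% and 14.1% of thinned progenitors and in 6.46%, 1.39% and 0.297% of endothelial cells. Among interstitial progenitors the Mmp3 share was 18.1%, 11.6% and 4.81%, and among Areg cells it was 55.1%, 42.8% and 37.4%. Timp4 UMIs were in 32.0%, 29.2% and 24.96% of endothelial cells and in at most 0.583% of progenitors. The median progenitor had 14079, 6433 and 9218 UMIs and the median endothelial cell 6043, 3214 and 3916.

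Other genes of the pathway were read from lists chosen by function. A list of 6 genes held activating proteases and the urokinase receptor Plaur. Of these, 3 in Mgp-KO and 4 in Pd-KO progenitors were over 1.5-fold higher and none was lower. Of all genes, 23.6% and 26.0% were higher. Relative to genes of like intron length, 3 were higher and 1 lower in Mgp-KO, and 3 higher in Pd-KO. Within such bins 29.1% of all genes in Mgp-KO and 36.1% in Pd-KO were past 1.5-fold in either direction. These shares also apply to the ADAM and ADAMTS counts below. Plau (urokinase), with 4.36 kb of intron, stood at 19.4, 43.8 and 48.1 CPM (1.04 and 1.13), and Plat (tissue plasminogen activator) at 129, 245 and 238 CPM (0.78 and 0.70). Relative to genes of like intron length they stood at 1.35 and 1.58, and at 0.90 and 0.83. Pcsk5, a convertase that cleaves proproteins, stood at 65.5, 279 and 307 CPM (1.96 and 2.05), but genes with over 100 kb of intron, like its 391 kb, had medians of 1.29 and 1.46. Of 14 ADAM and ADAMTS genes, relatives that shed surface proteins or cut proteoglycans, 3 in Mgp-KO, a share near that of all genes, and 9 in Pd-KO were higher and 2 in Pd-KO lower (18.8% of all genes were lower there), and relative to genes of like intron length 1 and 3 were higher and 1 and 3 lower.

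Among other inhibitors, Reck, a membrane inhibitor of metalloproteinases, was higher in both (40.1, 86.8 and 125 CPM, ratios of 0.98 and 1.46), at 0.55 and 0.89 relative to genes with 50 to 100 kb of intron. Of 13 other Mmp genes 5 had enough UMIs for the comparison, of which 2 were higher and 1 lower in Mgp-KO, and 2 higher and 2 lower in Pd-KO. Relative to genes of like intron length these were 1 and 2 in each. Over all genes, 23.6% were higher and 11.3% lower in Mgp-KO, and 26.0% and 18.8% in Pd-KO. Within bins of like intron length 29.1% and 36.1% were past 1.5-fold in either direction. These shares also apply to the lists that follow. Mmp27 had 36.9, 79.5 and 31.9 CPM (0.97 and -0.39). Among 9 genes of collagen processing 1 was higher and 1 lower in Mgp-KO, and 2 higher and 1 lower in Pd-KO, against 1 higher and none lower in each relative to genes of like intron length. Tll1, a tolloid protease that cuts procollagen ends, was at 2.00, 17.7 and 30.7 CPM (3.01 and 3.76), and at 1.71 and 2.30 relative to genes with over 100 kb of intron. Of 5 receptors 1 was higher and 1 lower in each knockout. Relative to genes of like intron length 1 was higher and 1 lower in Mgp-KO, and 0 higher and 1 lower in Pd-KO. Cd44, which can anchor MMPs, was higher in Mgp-KO (1.20, and 0.33 in Pd-KO), and Cd63, which binds TIMP1, was lower in both (-0.81 and -0.999). Relative to genes of like intron length Cd44 stood at 0.77 and -0.24, and Cd63 at -0.61 and -0.72. Between progenitor and endothelial cells, 10 of the 14 ADAM and ADAMTS genes and 8 of the 9 collagen processing genes were higher in progenitors by the edgeR test, and 2 and 1 were lower, where 27.7% of all genes were higher and 22.7% lower.

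Over 24 sums of gate and library, each member was set beside 7507 other genes by the correlation of log2(CPM + 10), given as a description, since the sums share libraries. Mmp2 ran closest to Rnase4 (r = 0.98), Htra3 and Dcn, and Mmp23 to Col1a2 (r = 0.98), Col1a1 and Ogn. Mmp3 ran closest to Inmt (r = 0.95), Srpx and Tmem119, and Tmem119 was also second for Timp1 after Olfml3. Mmp14 ran closest to Tmem39a (r = 0.96), Notch2 and Mitf, Timp2 to Ogn, Gpr153 and Mfap5, and Timp4 to the endothelial genes Esam (r = 0.98) and Tcf15. Mmp19 ran with Apbb1ip (r = 0.96), Timp3 with Arf2 (r = 0.90) and Mmp11 with Arl13b (r = 0.86). Among the members themselves Mmp3 and Timp1 had r = 0.89, Mmp2 and Timp2 had r = 0.89, and Mmp14 and Timp2 had r = 0.72.

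In GRCm38 with GENCODE M21, a build named by the reference table and not by the count files, Timp1 (X:20870166-20874735, plus strand) lies opposite Syn1, Timp3 (10:86300372-86349506, plus strand) opposite Syn3 and Timp4 (6:115241892-115252205, minus strand) opposite Syn2. Mmp3 (9:7445822-7455975, plus strand) and Mmp14 (14:54431612-54445364, plus strand) overlap no other annotated gene. Mmp19 and Mmp11 lie opposite Tmem198b and Chchd10, and Timp2 overlaps Cep295nl on the same strand, so that reads of Timp2 and Cep295nl may have been shared.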

How the data were processed

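The samples were 3 droplet libraries (10x Genomics 3′ v3), 1 per genotype, each from pooled mice. The authors deposited, per the labels and the file headers, raw counts of UMIs per gene and barcode before cell calling. The methods and labels name Cell Ranger 6.1.1, the file headers name version 4 (WT) and 7.1.0 (both knockouts). The methods name mm10 and the labels GRCm39. The methods state default parameters, under which version 6.1.1 leaves out intronic reads and version 7.1.0 counts them. Cell types were rebuilt from marker gates and can differ from the study's own. Intervals cover counting error only.

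The 10 genes, the pathway lists and the markers were chosen with earlier results of these data known. All 10 genes are named whatever their values, and pathway lists are given by counts with a few genes named. The counts between genotypes of 1 list, other inhibitors, are not reported here. Gate scores and thresholds (8 for progenitors, 3 for the others, each gate needing at least 50 cells per library in a fit), the 50 CPM minimum of the 10 leading genes, the immediate early window and the bins of intron length (gene span less exons, GENCODE M21) were set after the cells had been examined. No doublet caller was run, and cells past 2 gates were left out.

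Counts were summed per gate and library. Gates were compared with edgeR 4.0.16 (TMM, filterByExpr, quasi-likelihood test, library as a block) in R 4.3.3, and a call is an adjusted p under 0.05. Each gate sum is a different set of cells of the same library. With the library as a block, p-values measure how differences between gates vary over these 3 libraries, which are also the 3 genotypes. DESeq2 1.42.0 was an alternative. Genotypes were compared by the log2 ratio of CPM less the median of all genes with at least 100 UMIs, with exact binomial intervals in SciPy 1.17.1 (Python 3.11.15, NumPy 2.4.6, pandas 2.3.3) and no test. On simulated data for progenitor minus endothelial cells, with 200 genes changed 2-fold, edgeR recovered 106 to 125 of them with 3 to 17 false calls in 5 draws.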

Additional observations from a re-analysis of the deposited data

Results flagged for a closer look

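Timp1 in Mgp-KO went in opposite directions in different gates. Relative to WT its log2 ratio was 1.44 in mural cells, but -0.87 in interstitial progenitors, -0.65 in preadipocytes, -0.94 in the remaining progenitors and -1.79 in endothelial cells. The difference between gates was not tested, since each genotype is 1 library. The mural value rests on 50 Timp1 UMIs in 156 Mgp-KO cells and 192 UMIs in 924 WT cells. Cells with a Timp1 UMI were 5.77% of the mural cells in Mgp-KO and 11.1% in WT, or 3.21% and 3.68% after thinning to 2000 UMIs, so the higher level was not seen in the share of cells. The ratio was -0.34 with the score thresholds doubled and -0.0623 with cells of 2 gates kept.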

How the results depend on the processing

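With 1 library per genotype, nothing between genotypes can be set against biological spread, and the shallow vascular gates limit their ratios. Genes called without the library (replicate) block were 4493 (progenitor minus endothelial), 3431 (progenitor minus mural), 3340 (endothelial minus mural), 1605 (interstitial minus preadipocyte) and 1257 (Areg), against 7045, 5788, 5251, 5989 and 4054 with it. Members called without the block were 9, 7, 2, 2 and 3 of 10, where 32.1%, 24.5%, 23.9%, 11.2% and 8.79% of all genes were called. With thresholds doubled, 3935 genes were called between interstitial progenitors and preadipocytes. Leaving out 1 library gave 5140 to 5823, 4170 to 4626, 3692 to 4170, 4540 to 4829 and 2789 to 3082 calls. The Wald test of DESeq2 called 7098, 5916, 5322, 5148 and 3760.

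Some directions turned. Timp1 between interstitial progenitors and preadipocytes was 0.12 (adjusted p = 0.56, edgeR) with thresholds doubled. In Mgp-KO, Timp1 in mural cells was -0.34 with thresholds doubled and -0.0623 with cells of 2 gates kept, Mmp19 in preadipocytes was -0.0195 in the immediate early window, and the log2 ratio of all Mmp to all Timp UMIs in Areg cells, 0.08 in the report, was -0.0869 with thresholds doubled. In Pd-KO, Mmp11 in preadipocytes was -0.82 in female cells, and Mmp3 over Timp1 in interstitial progenitors was 0.27 in that window. The causes were not tested.

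The Mmp to Timp ratio over all progenitors (-0.28, -0.07 and -0.44 in WT, Mgp-KO and Pd-KO) was -0.0401 in Mgp-KO and -0.36 in Pd-KO with cells weighted equally, -0.31 in WT and -0.15 in Mgp-KO with thresholds doubled, and -0.10 in Mgp-KO and -0.46 in Pd-KO with at least 5000 UMIs per cell. It was -0.22, -0.00070 and -0.42 in female and -0.32, -0.23 and -0.48 in male cells. In the immediate early window, which also changed the mix of progenitor gates, it was -0.30, -0.37 and -0.23. The window and the centring on genes of like intron length were chosen after seeing the data. The sum without Mmp3 was not among the planned ratios. Contrasts of lineages with at least 5000 UMIs per cell could not be fitted, because Mgp-KO then held under 50 endothelial and under 50 mural cells.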
